A study of Mus musculus with 42 samples.

Results

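The genes of the matrix metalloproteinases (Mmp), the ADAM and ADAMTS metalloproteinases, the ADAMTS-like proteins (Adamtsl) and the tissue inhibitors of metalloproteinases (Timp) were followed through 12 tables of normalized read counts from the mouse colon. Members were taken by gene symbol, with Mmp8 and Mmp9 set aside, and 63 such genes were present among 19232 named genes in the tables. A member was tested in a table where its mean normalized count was at least 10, which 59 of the 63 reached in 1 or more tables. Mmp20, Mmp24, Adam3 and Adam32 reached it in none, and 16 members reached it in all 12. The member just inside the threshold had a mean between 10.02 and 19.3 over the 12 tables, and the one just outside, in the 11 tables that had one, between 5.90 and 9.91, and 18 to 56 members were tested per table.

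The study asked how bone morphogenetic protein (BMP) signaling in stromal cells acts on the colon epithelium. All sorted cells came from mice that carried Gli1CreERT2, a tamoxifen-inducible Cre recombinase expressed from the Gli1 locus in stromal cells, and that received injections of 100 µl of 20 mg/ml tamoxifen on each of 5 days, with cells taken at day 30 from mice of 2 to 4 months and both sexes. Controls (GWTT, GWTM2) carried wild-type Smad4 and Alk3, while the other mice, with fl/fl alleles, lost Smad4, the shared signaling Smad (GS4T, GS4M2), or Alk3, the type I BMP receptor encoded by Bmpr1a (GA3T, GA3M2), in Gli1+ cells. Stromal cells were sorted by a Cre-dependent tdTomato reporter (GWTT, GS4T, GA3T) and goblet cells by a Muc2-mCherry reporter (GWTM2, GS4M2, GA3M2), from the proximal and the distal colon, with 2 libraries in each of these 12 groups. The goblet cells themselves were not targeted by the Cre. Wild-type colonic organoids, grown with the BMP antagonist Noggin in the medium, were left untreated or received 10 nM IL-1 (IL-1a with IL-1b) or IL-17A for 12 or 72 h, with 3 libraries in each of these 6 groups. Organoids hold epithelium without stroma or immune cells.

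Matrix metalloproteinases are secreted or membrane-anchored zinc enzymes that cut collagens, proteoglycans and other matrix proteins, and most are made as inactive precursors. ADAM proteins shed the outer parts of membrane proteins such as growth factor precursors, and ADAMTS proteins are secreted enzymes that trim procollagens, cut aggregating proteoglycans or act on fibrillin microfibrils. ADAMTS-like proteins resemble the latter but have no protease domain. TIMPs bind the active site of these enzymes, and the balance of enzyme to inhibitor in fibroblasts is a classic measure in tissue repair, fibrosis and colitis.

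The 42 labelled libraries held 14222900 to 23686900 reads over genes. The control columns of a segment or time point were the same libraries in both of its tables, and 2 pairs of organoid controls labelled 12 h and 72 h held the same reads, which left 40 distinct libraries. In the GS4T libraries Smad4 fell from a mean of 1638 to 770 normalized counts in the proximal colon (adjusted p = 0.0101), and from 1742 to 926 in the distal colon it was 0.96 lower on the log2 scale (adjusted p = 0.0424). In the GA3T libraries Bmpr1a was at 3090 and 2038 in the proximal colon (adjusted p = 0.12) and at 3422 and 2123 in the distal colon (adjusted p = 0.101). A pair of proximal knockout libraries stood apart, since Gli1 itself was at 23.9 normalized counts in the second GS4T library and 34.7 in the second GA3T library against 642 or more in the other proximal stromal libraries. The summed level of 12 fibroblast markers lay between 825247 and 1264280 in every stromal library. The labels name the tissue of these cells as intestinal epithelium, which their fibroblast markers do not bear out. Read from Xist and 4 genes of chromosome Y, libraries of both sexes stood in 5 of the 12 sorted groups and 5 of the 6 organoid groups, which therefore drew on more than 1 animal. For the other groups the labels do not say whether libraries came from separate animals or cultures, and p-values there measure a spread that may be technical. Sex was not balanced, as the GS4T libraries were female and the GS4M2 and GA3M2 libraries and those with IL-17A at 72 h male, against controls of both sexes except in the distal stroma, where both control libraries were female. In 3 organoid groups a pair of libraries was nearly identical (replicates 3 and 4 of IL-1 and of IL-17A at 12 h, and untreated replicates 2 and 4 at 72 h), with a chi-square per degree of freedom of 3.03 to 3.32 against 26.2 to 212 in the other organoid pairs of a group. For the proximal GS4M2 comparison the genotype headings given by the study run opposite to the deposited column names. The deposited names were kept here, and their GWTM2 columns hold the same reads as those of the GA3M2 table.

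Mmp13, Mmp12, Mmp3 and Mmp10 lie within 1 cluster on mouse chromosome 9 (GRCm38), at chr9:7272514-7283331, chr9:7344381-7369499, chr9:7445822-7455975 and chr9:7502352-7510240, all on the plus strand. They are shown because their log2 fold changes were the 4 largest of the distal stroma with Smad4 lost, a grouping made after their values were seen. The 250 bases before each start follow, from RefSeq on GRCm38.p6, with the letters TGAGTCA, the core of the AP-1 site, in capitals on either strand, where the reverse complement reads TGACTCA.
Mmp13, chr9:7272264-7272513, plus strand: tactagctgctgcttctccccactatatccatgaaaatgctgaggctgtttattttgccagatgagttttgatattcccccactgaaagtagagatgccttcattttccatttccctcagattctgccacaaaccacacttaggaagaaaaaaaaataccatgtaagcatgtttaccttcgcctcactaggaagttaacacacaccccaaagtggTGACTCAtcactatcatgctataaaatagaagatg
Mmp12, second start, chr9:7347124-7347373, plus strand: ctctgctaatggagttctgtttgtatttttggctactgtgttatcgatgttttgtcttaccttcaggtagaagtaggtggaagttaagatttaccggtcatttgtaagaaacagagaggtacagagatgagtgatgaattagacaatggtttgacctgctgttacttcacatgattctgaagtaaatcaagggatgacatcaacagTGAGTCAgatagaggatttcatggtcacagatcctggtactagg
Mmp3, chr9:7445572-7445821, plus strand: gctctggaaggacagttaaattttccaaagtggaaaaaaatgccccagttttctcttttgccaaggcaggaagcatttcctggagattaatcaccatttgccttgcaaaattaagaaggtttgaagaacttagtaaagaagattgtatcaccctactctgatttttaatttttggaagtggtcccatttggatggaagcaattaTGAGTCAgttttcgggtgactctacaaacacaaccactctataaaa
Mmp10, chr9:7502092-7502341, plus strand: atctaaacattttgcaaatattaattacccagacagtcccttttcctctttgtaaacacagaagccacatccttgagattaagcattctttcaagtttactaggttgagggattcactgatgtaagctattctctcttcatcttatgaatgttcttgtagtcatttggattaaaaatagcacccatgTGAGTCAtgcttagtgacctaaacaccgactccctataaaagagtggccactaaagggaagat
The match began 35 bases before the start of Mmp13, 44 before the second start of Mmp12, 46 before that of Mmp3 and 63 before that of Mmp10, and the window of the first start of Mmp12 held none. Over windows from 250 bases before to 50 bases after a start, the letters were found for 9 of the 47 members with a window in the RefSeq table (19.1%), and for 1607 of 27025 genes in all (5.95%). The other members with a match were Adam19, Adam29, Mmp1a, Mmp1b and Mmp7. A match describes the letters only.

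With Smad4 lost in Gli1+ cells, Mmp10 and Mmp13 rose in both segments, with the largest increases of all members in the distal colon, followed there by Mmp3. In the proximal colon Mmp13 could not be told apart from Mmp12 and Adamts16, at log2 fold changes of 5.34, 5.19 and 5.16. Fibrillin-linked Adamts10 fell in both segments, as did 3 of 5 tested Adamtsl genes in the proximal and 4 of 5 in the distal colon. Genes were compared with their controls by limma on log2(normalized count + 1), and a member was called when its adjusted p was under 0.05 and its change at least 1 on the log2 scale, the fold being understated for low counts. In the proximal colon 21 of the 55 members tested were called (38.2%), 14 higher and 7 lower, where 9.61% of all genes tested were called, 5.25% higher and 4.36% lower. Of the 56 tested in the distal colon 22 were called (39.3%), 12 higher and 10 lower, beside 14% of all genes, 7.88% higher and 6.08% lower. The values of both knockout libraries lay on 1 side of both controls for 46 of 55 members in the proximal and 47 of 56 in the distal colon, and for 65.4% and 67.5% of all genes. The median log2 fold change over the members tested was 0.43 for the proximal and 0.33 for the distal colon, against 0.02 and 0.00 over all genes. Called higher in both segments were Mmp3, Mmp10, Mmp13, Mmp15, Adam8, Adamts7, Adamts12 and Timp1. Called lower in both were Mmp16, Adam33, Adamts1, Adamts10, Adamtsl1, Adamtsl3 and Adamtsl5. The share of all genes called in both segments is not given here.

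Mmp10, stromelysin 2, stood at 28.95 and 30.7 normalized counts in the proximal GWTT libraries and at 4473 and 1805 in the GS4T libraries, a log2 fold change of 6.53 ± 0.44 (SE, adjusted p = 0.00465). Distal libraries held 151 and 116 in GWTT and 16851 and 9088 in GS4T, a log2 fold change of 6.54 ± 0.30 (adjusted p = 0.000577). Both knockout libraries lay far above both controls in each segment. Mmp13, collagenase 3, which opens the fibrillar collagen helix, rose from 24.8 and 26.6 to 2165 and 542 in the proximal colon (log2 fold change 5.34 ± 0.65, adjusted p = 0.0118). Its distal increase, from 63.6 and 73.6 to 15155 and 6932 (7.21 ± 0.35, adjusted p = 0.00061), was the largest change of any member. The first library of each knockout pair was the higher one for both genes in both segments.

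Mmp3, stromelysin 1, a broad activator of other Mmp precursors, differed between the segments. Proximal controls held 665 and 559 normalized counts of it and GS4T libraries 1449 and 1055 (log2 fold change 1.02 ± 0.19, adjusted p = 0.0294). Distal controls held 489.9 and 288 and GS4T libraries 10304 and 7361 (4.53 ± 0.28, adjusted p = 0.00104). The proximal log2 fold change minus the distal one was -3.51 ± 0.40 (interaction term, adjusted p = 0.0462). Mmp3 was the 1 member of 54 called in that test, in which 0.195% of all genes were called, and 9 members passed the fold with an unadjusted p under 0.05 (5.06% of all genes). With 1 of the 8 libraries left out the difference lay between -3.89 and -3.13, and Mmp3 was called only without the second proximal GWTT library. Its adjusted p was 0.0806 without the second proximal GS4T library, the one low in Gli1. Mmp12, macrophage elastase, was at 1.03 and 51.2 in controls and 409 and 346 in knockouts in the proximal colon (adjusted p = 0.0761) and at 344 and 48.4 in controls and 3046 and 814 in knockouts in the distal colon (adjusted p = 0.0506). Its knockout libraries were above its controls in both segments, the control libraries differed widely from each other, and the test was not passed. Exons of Mmp12 overlap those of Mmp1b on the other strand, and the strand setting of the counting was not given in the sources used here.

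**Figure D1:**
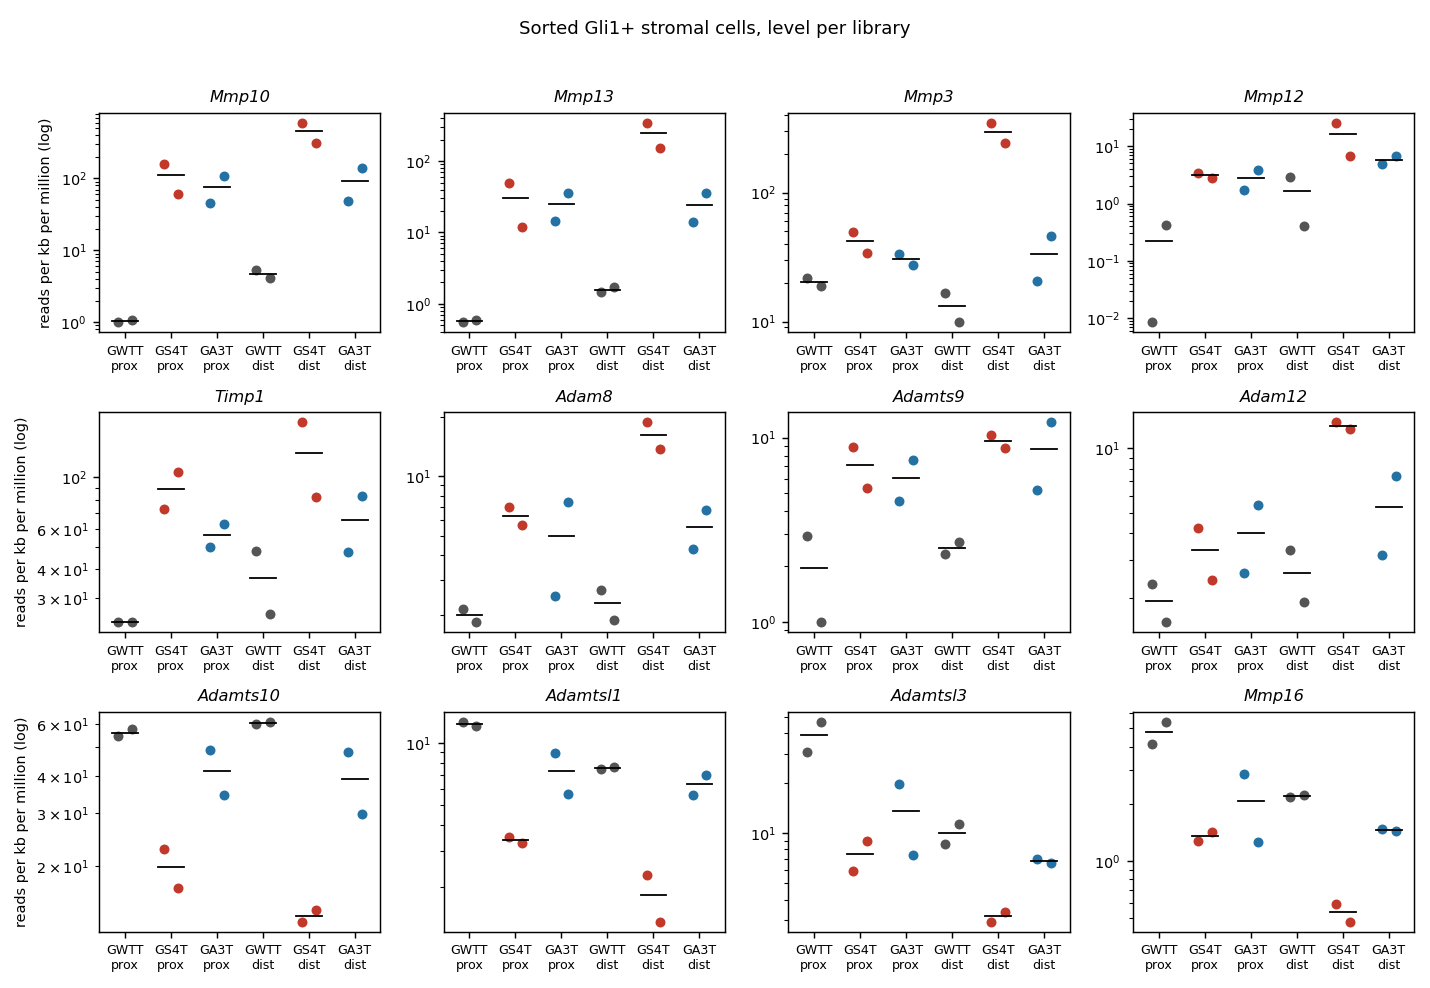
Level of 12 members in each sorted stromal library, in RPKM (reads scaled to exon length and library size) on a log axis that differs between panels. Each point is 1 library and each line the mean of 2. Mmp10 and Mmp13 lie near 1 in the proximal GWTT libraries and above 10 in every knockout library, while Adamts10, Adamtsl1 and Mmp16 are lowest in the GS4T libraries of the distal colon.

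The membrane-type enzymes moved in both directions. Mmp14, which activates the Mmp2 precursor at the cell surface, rose in the proximal colon from 8972 and 7083 to 18758 and 18010.2 (log2 fold change 1.21 ± 0.16, adjusted p = 0.0139). Distal Mmp14 was at 17222 and 12837 in GWTT and 22137 and 22422 in GS4T (0.58, adjusted p = 0.0708), again without overlap but short of the call. Mmp15 rose in both segments, from 48.6 and 96.3 to 228 and 256 in the proximal and from 59.7 and 91.00 to 261 and 416 in the distal colon. Mmp16 fell in both, from 609 and 776 to 179 and 211 (-1.82 ± 0.19) and from 308 and 314 to 84.1 and 69.3 (-2.01 ± 0.23). Mmp2, gelatinase A and the most abundant Mmp, was at 21089.5 and 22364 in controls and 38172 and 41337 in knockouts in the proximal colon (0.87, adjusted p = 0.0328), a difference below the fold required. Its distal values were 29265 and 26078 in controls and 36966 and 47529 in knockouts (0.60, adjusted p = 0.0869). Mmp11, stromelysin 3, fell in the distal colon from 1436 and 982 to 496 and 437 (-1.35 ± 0.20) and overlapped between groups in the proximal colon. In all, 5 of the 15 Mmp genes tested rose and 1 fell in the proximal colon, and 4 rose and 2 fell in the distal colon.

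Among the ADAM genes, 4 rose and 1 fell of the 14 tested in the proximal colon, and 2 rose and 1 fell of the 13 tested in the distal colon. Adam8, a protease of leukocytes and of inflamed tissue, was at 169 and 141 in proximal controls and 528 and 451 in GS4T (log2 fold change 1.65 ± 0.19). It rose in the distal colon from 203 and 142 to 1425 and 1060.4 (2.85 ± 0.24). Adam12, found in activated mesenchymal cells, rose in the distal colon from 579 and 328 to 2289.7 and 2162 (2.35 ± 0.26, adjusted p = 0.00405). Proximal Adam12 was at 414 and 271 in controls and 731 and 439 in knockouts and was not called (adjusted p = 0.172). Adam19, a sheddase of neuregulins, rose in the proximal colon from 2458 and 2439.7 to 7439 and 6249.6 (1.48 ± 0.12), as did Adam11, itself without protease activity, from 111 and 158 to 326 and 355. Adam28 rose there from 5.17 and 2.05 to 68.2 and 78.7, passing the filter through the knockout libraries. Adam33 fell in both segments, to 65.5 and 45.9 from 135 and 177 in the proximal and to 44.3 and 62.2 from 126 and 199 in the distal colon. Of the main sheddases, Adam10 stayed below the fold required in both segments, with log2 fold changes of 0.45 (adjusted p = 0.0343) and 0.89 (adjusted p = 0.00902), and Adam17 had values of 0.12 and 0.01, given for the proximal and then the distal colon.

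The ADAMTS genes split by member. Adamts7 and Adamts12, related enzymes that cut cartilage oligomeric matrix protein, rose in both segments. Adamts7 went from 627 and 699 to 1768 and 1289 normalized counts in the proximal colon (log2 fold change 1.19) and from 963 and 816 to 1912 and 2137 in the distal colon (1.19). Adamts12 went from 935 and 1069 to 2377 and 2233 in the proximal colon (1.204) and from 1279 and 1189.7 to 2647 and 2681 in the distal colon (1.11). Adamts9, a proteoglycan-cutting enzyme, rose in the distal colon from 573 and 661 to 2547 and 2205 (log2 fold change 1.94 ± 0.13, adjusted p = 0.00125). Its proximal values were 744 and 249 in controls and 2179 and 1368 in knockouts, with a log2 fold change of 2.0005 ± 0.54 and an adjusted p of 0.067. Adamts14, a procollagen N-proteinase, rose in the proximal colon from 555 and 448 to 1420.2 and 1247, whereas the related Adamts2 was called in neither segment. Adamts8 and Adamts20 rose in the distal colon, from 23.5 and 23.2 to 96.5 and 58.7 and from 22.5 and 33.9 to 75.3 and 96.3. Adamts16 had no read in either proximal control library and 29.5 and 40.9 normalized counts in the GS4T libraries, at least 11.4-fold higher against a floor of 3 reads per library. It passed the filter through the knockout libraries alone.

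Adamts10, which acts on fibrillin microfibrils, fell in both segments with little spread between libraries. It stood at 7611 and 7865 in proximal controls and 3052 and 2367 in GS4T (log2 fold change -1.53 ± 0.15, adjusted p = 0.00769). Distal values were 8108 and 8148 in controls and 1755 and 1956 in GS4T (-2.13 ± 0.11, adjusted p = 0.000648). The groups were far from overlapping in either segment. Adamts1, another proteoglycan-cutting enzyme, fell from 20924 and 12789 to 5079.5 and 7954 in the proximal colon (adjusted p = 0.049) and from 8918 and 13960.2 to 5451 and 5195 in the distal colon (adjusted p = 0.0219). Adamts17, also tied to microfibrils, fell in the distal colon from 375 and 273 to 96.5 and 177. The aggrecanases Adamts4 and Adamts5 were not called, with log2 fold changes of 0.43 and -0.83 in the proximal and 0.35 and 0.17 in the distal colon. Adamts18 was low in both segments, at 7.24 and 34.8 in controls and 2.77 and 2.99 in knockouts in the proximal and 80.2 and 81.3 in controls and 21.3 and 1.17 in knockouts in the distal colon, and was not called.

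The ADAMTS-like genes had decreases and no called increase. Of the 5 tested, 3 fell in proximal libraries and 4 in distal ones. Adamtsl1 fell from 2715 and 2563 to 728 and 714 (log2 fold change -1.87 ± 0.10, adjusted p = 0.00352) and, in the distal colon, from 1572 and 1588 to 483 and 291 (-2.07 ± 0.24). Adamtsl3 fell from 4059 and 5990.2 to 753 and 1196 in the proximal and from 1104 and 1428 to 374 and 438 in the distal colon. Adamtsl5 fell from 1799 and 2141 to 764 and 973 and from 1973 and 1945 to 498 and 685. Adamtsl4, which binds fibrillin, fell in the distal colon from 4076 and 4469 to 1497 and 1582, and its proximal values of 4612 and 3786 in controls and 2036 and 2422 in knockouts were short of the fold (-0.91, adjusted p = 0.0215). Adamtsl2, named after its values were seen, was the exception in sign, at 507 and 439 in controls and 863 and 2595 in knockouts in the distal colon (1.66, adjusted p = 0.0557), and was not called.

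The inhibitors did not move together. Timp1, the inducible inhibitor, rose from 357 and 349 to 1059.6 and 1599 in the proximal colon (log2 fold change 1.88 ± 0.21, adjusted p = 0.0103) and from 697 and 372 to 2514 and 1225 in the distal colon (1.78 ± 0.42, adjusted p = 0.0315). Timp2, which also takes part in the activation of Mmp2 by Mmp14, was at 32574 and 32643 in proximal controls and 17509 and 18962 in GS4T (-0.84, adjusted p = 0.0294). Its distal values were 33930.4 and 30035 in controls and 15245 and 19469 in knockouts (-0.89, adjusted p = 0.0239), so it was lower in every knockout library but short of the fold required. Timp3, the matrix-bound inhibitor, was at 5231 and 6044 in controls and 10289 and 10521 in knockouts in the proximal colon (0.89, adjusted p = 0.0152) and overlapped between the groups in the distal colon, with 7145 and 7793 in controls and 7579.6 and 5839.6 in knockouts. Timp4 was at the edge of detection, with at most 21.1 normalized counts in a distal stromal library.

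**Figure D2:**
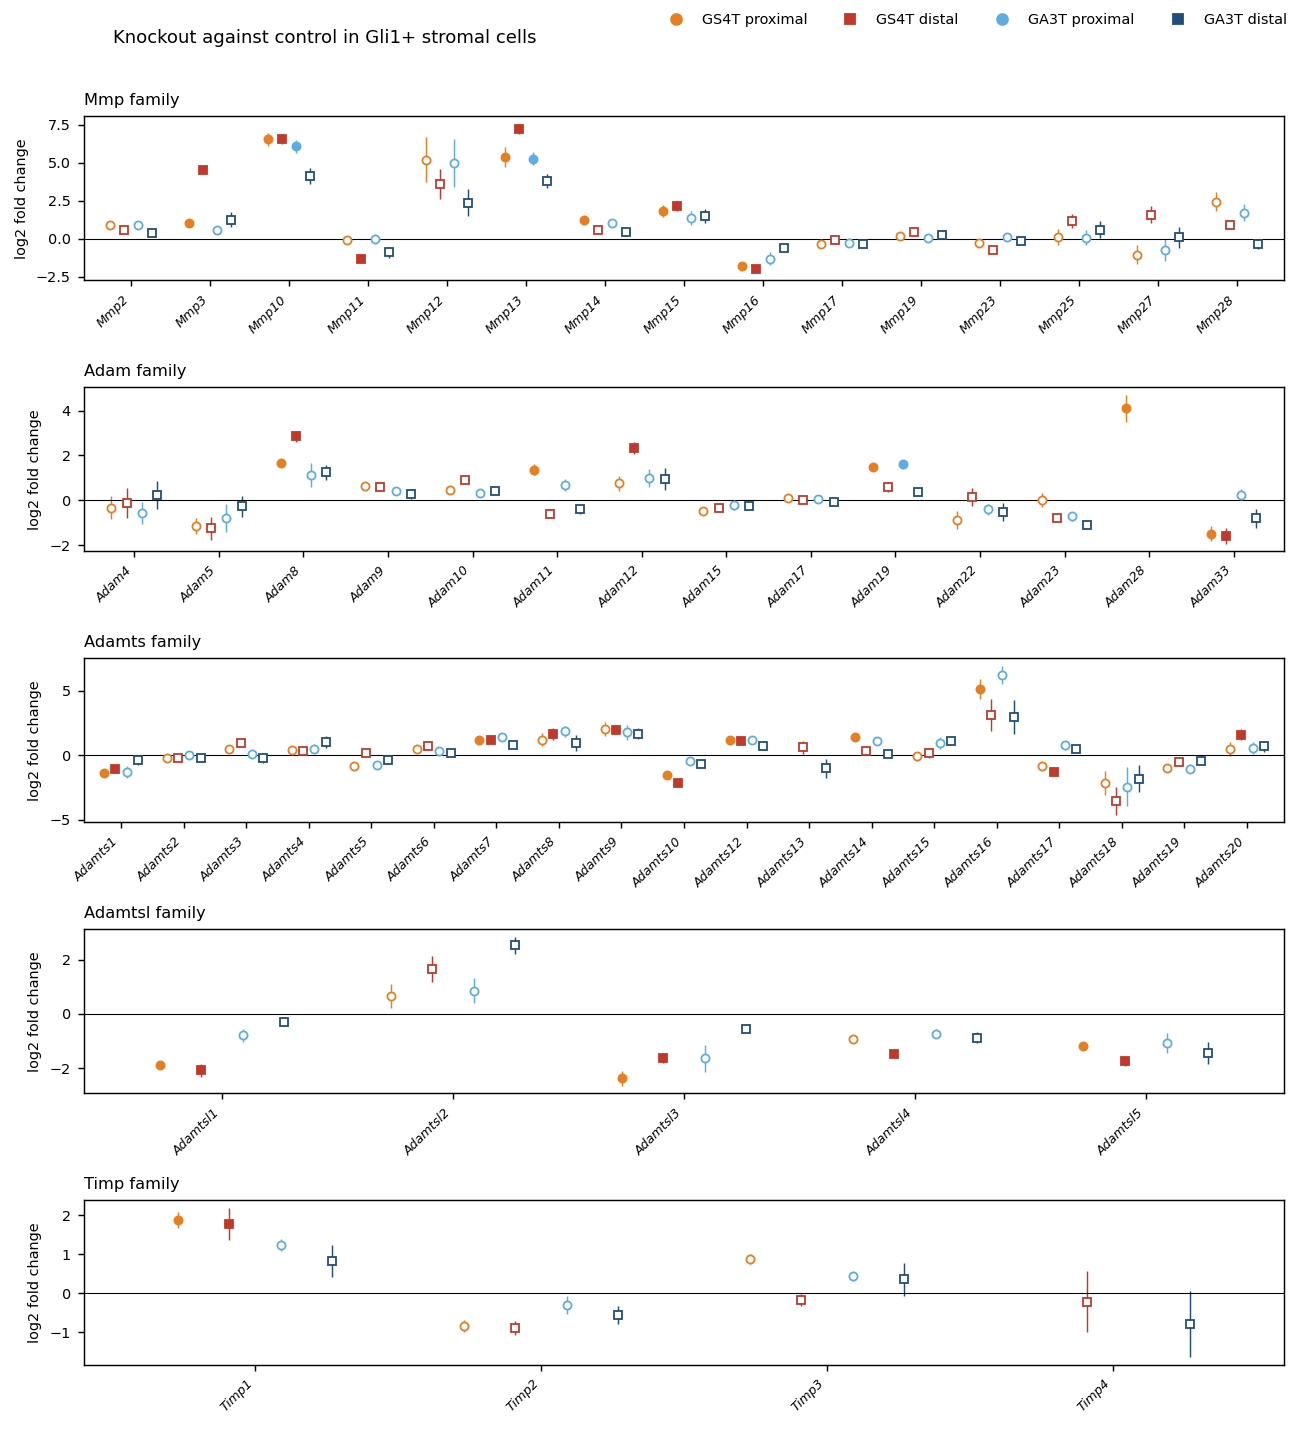
Log2 fold change of each member tested, knockout against control, in the 4 stromal comparisons, with error bars of 1 SE. Filled symbols are called members and open symbols are not. Filled symbols are found for GS4T in both segments and, for GA3T, at Mmp10, Mmp13 and Adam19 of the proximal colon.

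Per length, Timp2 and Mmp2 were the highest members in control stroma and Mmp2 and Mmp10 in the distal GS4T stroma. In the proximal GWTT libraries Timp2 was the highest member at 495 and 505 RPKM, above Mmp2 at 370.0 and 400.0. In the distal GWTT libraries Timp2, at 531 and 475, and Mmp2, at 529 and 476, could not be told apart. In the distal GS4T libraries Mmp2 came first at 669 and 844, followed by Mmp10 at 597 and 316 and Mmp3 at 349 and 245. The ranges of Mmp3 and of Timp2, at 239 and 299, overlapped there. Mmp10 had been at 5.33 and 4.15 in the distal controls.

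Summed over the Mmp members, the level per length was 584 and 595 in the proximal GWTT libraries and 1244 and 1106 in the GS4T libraries. Distal sums were 855 and 734 in GWTT and 2301 and 1886 in GS4T. The Timp sum was 556 and 574 in the proximal GWTT and 427 and 466 in the GS4T libraries, and 632 and 559.5 against 468 and 425 in the distal colon. The ratio of the Mmp sum to the Timp sum thus lay at 1.05 and 1.04 in proximal controls and 2.91 and 2.38 in proximal GS4T libraries, and at 1.35 and 1.31 in distal controls and 4.91 and 4.44 in distal GS4T libraries. In the GA3T libraries the ratio was 1.83 and 2.51 in the proximal and 1.99 and 2.61 in the distal colon. In no case did a knockout library reach down to its controls. The sums are RNA levels per length and say nothing of enzyme activity, and no test was made on them.

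**Figure D3:**
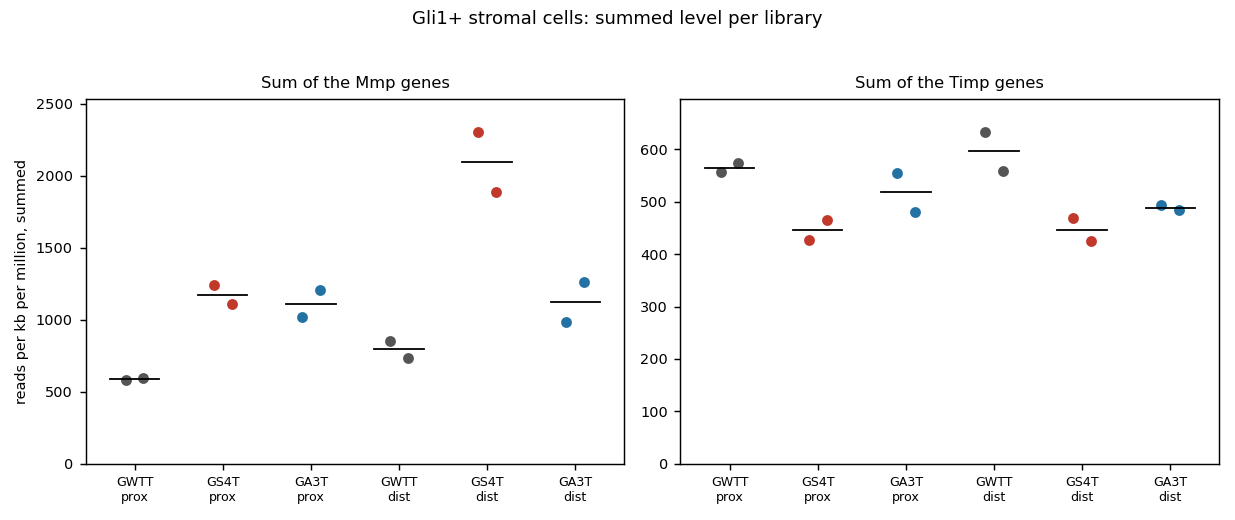
Summed level of the Mmp members (left) and the Timp members (right) in each sorted stromal library, in RPKM from 0, with 1 point per library and lines at the means of 2. The Mmp sums of the distal GS4T libraries, 2301 and 1886, lie above all others, and the Timp sums of the GS4T libraries, 425 to 468, are the lowest.

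Markers of other cell types moved with the same groups, some higher and some lower. The summed level of 12 neutrophil markers was 128 to 194 normalized counts in the proximal GWTT libraries and 2110 to 2318 in GS4T, with 8 of the 9 tested called higher and 1 of the 12 without a row. The distal range was 198 to 285 in controls and 5685 to 8798 in knockouts, with all 10 tested called higher. The sum of 12 macrophage markers was 3928 to 5729 and 16386 to 27876 in the proximal colon (7 of 12 called higher), and 10948 to 12518 and 20659 to 35645 in the distal colon (6 of 12). That of 12 epithelial markers was 602 to 20854 and 34883 to 51226 in the proximal colon (1 of 12 called higher), and 1885 to 5492 and 18602 to 42700 in the distal colon (11 of 12). The sum of 8 plasma and B cell markers was 27131 to 47183 in controls and 7207 to 14573 in knockouts in the proximal colon (2 of 6 tested called lower), and 58579.8 to 79985 and 1931 to 8088 in the distal colon (5 of 8 called lower). That of 8 smooth muscle markers was 7175 to 9860 in controls and 19592 to 25010.3 in knockouts in the proximal colon (3 of 8 called higher), and overlapped in the distal colon (1 higher and 2 lower). In the other lists, given first for the proximal and then for the distal colon, 2 of 10 and 1 of 7 T and NK cell markers were called lower, and 2 of 10 and 5 of 10 goblet cell markers higher, with 1 distal one lower. Of 8 endothelial markers 3 were called higher and 1 lower, then 0 and 1, and of the enteric glia markers 0 of 4 and 1 of 3 higher. The proximal endothelial sum was nevertheless lower, at 2970 to 3057 in controls and 1530 to 2631 in knockouts. The proximal T and NK cell sum was lower as well, at 1611 to 1669 and 1190 to 1319, and both sums overlapped in the distal colon. Goblet cell and enteric glia sums were higher in the knockouts of both segments. For the tested enteric glia markers the median log2 fold change was, however, -0.52 (proximal) and -0.64 (distal), opposite in sign to their sum. The fibroblast marker sum overlapped between the groups in both segments, with 3 of its 12 genes called lower and 1 higher in the proximal colon and 4 lower in the distal colon. The part of these other cells in the changes of Mmp12, Mmp15, Adam8, Adam28, Timp1 and the other members was not tested. In sorted bulk cells a change in the number of cells of a type and a change in RNA per cell cannot be told apart.

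The proximal GS4T calls depended on single libraries. Fewer members were called without the first GS4T library or without the second, the one low in Gli1, and more without either GWTT library. Each of these fits leaves 1 library in a group. The share of all genes called in them is not given here, so the change in calls is not shown to be particular to the members. Mmp10, Timp1, Adamts10 and Adamtsl1 were called in all 4 of these fits, while Mmp13 had a log2 fold change of 4.35 with an adjusted p of 0.0563 without the first GS4T library and of 6.34 without the second. Mmp3, Mmp14, Mmp15, Adam8, Adam28 and Adamts1 were among the members called in neither fit that left out a GS4T library. Adam11, Adamts12, Adamts14, Adamtsl5 and Mmp16 kept the call in 2 of the 4 fits and Adam33 in 1. In the distal colon 16 to 22 members were called with 1 library left out, and Mmp10, Mmp13, Mmp3 and Adam12 were called every time, whereas Timp1 was lost without the second GWTT library (adjusted p = 0.123) and without the first GS4T library (adjusted p = 0.116).

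With Alk3 lost in Gli1+ cells, Mmp10, Mmp13 and Adam19 rose in the proximal colon. They were the 3 members called of the 54 tested, where 0.358% of all genes were called. DESeq2 on the recovered reads called 12 (6.21% of all genes), edgeR called 0 (0%), and 19 passed the fold with an unadjusted p under 0.05 (9.46%). Mmp10 rose from 30.5 and 32.3 in GWTT to 1421 and 3273 in GA3T (log2 fold change 6.06 ± 0.42, adjusted p = 0.0489). Mmp13 rose from 26.1 and 28.01 to 698 and 1666 (5.27 ± 0.45, adjusted p = 0.0489). Adam19 rose from 2586 and 2565 to 6951 and 9034 (1.62 ± 0.16, adjusted p = 0.0496). All 3 passed the threshold narrowly. Without the second GA3T library, the one low in Gli1, none was called and the log2 fold changes were 5.46 for Mmp10, 4.64 for Mmp13 and 1.43 for Adam19. Without the first GWTT library none was called either, and without the first GA3T library the log2 fold changes were 6.66, 5.89 and 1.81 in the same order.

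Other proximal GA3T values were large but missed the test. Adamts16 had no read in either control library and stood at 83.2 and 67.8 in GA3T, at least 23.2-fold higher (adjusted p = 0.0598). Mmp12 was at 1.09 and 53.9 in controls and 224 and 488 in knockouts (log2 fold change 4.96, adjusted p = 0.181). Timp1 was at 375 and 367 in controls and 793 and 980.3 in knockouts (log2 fold change 1.24, adjusted p = 0.0664), Mmp14 at 9439 and 7447 in controls and 16772 and 18212 in knockouts (1.06, adjusted p = 0.08), and Adamts7 at 659 and 735 in controls and 1664 and 2000.3 in knockouts (1.39, adjusted p = 0.051). In each of them both knockout libraries were above both controls. Mmp3, at 699 and 588 in controls and 1070.2 and 865 in knockouts, had a log2 fold change of 0.58 (adjusted p = 0.159). Timp2 was at 34272 and 34322 in controls and 31288 and 24695 in knockouts, a difference of -0.30 with an adjusted p of 0.469. Of the 54 members tested, 39 did not overlap between the groups, beside 56.4% of all genes.

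In the distal GA3T libraries 0 members of 56 and 0% of all genes were called by limma. By unadjusted p under 0.05 with the same fold 11 members passed, beside 7.77% of all genes, and DESeq2 called 11, beside 4.97%, while edgeR called 0. For 37 members the groups did not overlap, beside 54.3% of all genes. Mmp10 was at 172 and 132 in GWTT and 1488 and 4608 in GA3T (log2 fold change 4.11 ± 0.53, adjusted p = 0.0866), and Mmp13 at 72.5 and 83.7 in controls and 664 and 1817 in knockouts (3.80 ± 0.48, adjusted p = 0.0866). Adamtsl2 was at 578 and 499 in controls and 2249 and 4294 in knockouts (2.53 ± 0.31, adjusted p = 0.0866), and was named after its values were seen. Adam23, a disintegrin without protease activity, was at 5223 and 5123 in controls and 2831 and 2126 in knockouts (-1.08, adjusted p = 0.0994). The second knockout library was the farther from the controls for all 4. Without the first GA3T library the log2 fold changes of Mmp10 and Mmp13 were 4.925 and 4.53. Neutrophil marker sums were 135 to 204 in GWTT and 810 to 1900.3 in GA3T in the proximal colon (1 of 9 tested called higher), and 226 to 325 and 713 to 1246 in the distal colon (0 of 9). No gene of the other marker lists was called in either segment, but several sums did not overlap between the groups. The macrophage sum was 4133 to 6024 in GWTT and 15517 to 27245 in GA3T in the proximal colon, and 12459 to 14280.4 and 15117 to 20393 in the distal colon. The epithelial sum was 633 to 21927 and 18703 to 26612 in the proximal colon, which overlapped, and 2151 to 6250 and 13773 to 30189 in the distal colon. Plasma and B cell sums were lower in the knockouts, at 28543 to 49596 in GWTT and 16374 to 16975 in GA3T in the proximal and 66828 to 91024 and 32690.4 to 38923 in the distal colon. Smooth muscle sums were higher, at 7544 to 10374 in GWTT and 17548 to 24891 in GA3T in the proximal colon. Their distal ranges were 22119 to 23447 and 23916 to 25389, while the median log2 fold change of the list was -0.16. In the proximal colon the fibroblast sum was also higher, at 923410 to 1030690 and 1124770 to 1219510, with a median of -0.21 over its genes. The endothelial sum was lower there, at 3124 to 3214 and 1595 to 2344, with a median of 0.44. In these 3 lists the sum and the median thus had opposite signs. The part of these cells in the members' values was not tested.

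The losses of Smad4 and of Alk3 share their control libraries, so the knockout groups were compared with each other directly. Of 56 members 6 differed in the distal colon, beside 1.39% of all genes, and 14 by unadjusted p with the fold, beside 7.48%. Mmp3 was higher in GS4T than in GA3T by 3.28 ± 0.45 on the log2 scale (adjusted p = 0.0331) and Mmp13 by 3.42 ± 0.53 (adjusted p = 0.0426). Adamts10 was lower in GS4T, with a difference of -1.45 ± 0.20 (adjusted p = 0.0331). Adamtsl1 (-1.78), Mmp16 (-1.40) and Adamtsl3 (-1.07) were lower as well. With the replicate number as a block 1 member was called. With single libraries left out 0 or 1 were called, except without the second GA3T library, where 6 were. Mmp3, Mmp13, Adamts10 and Adamtsl1 each kept the call in 1 of these 6 fits, and Adamtsl3 and Mmp16 in none. The 6 called without that library were therefore not all the same members. Proximal members differing were 0 by limma and 5 by unadjusted p with the fold, beside 0.0392% and 3.11% of all genes. Between segments, the effect of Alk3 loss differed for 0 members by limma and 5 by unadjusted p with the fold, beside 0% and 3.13% of all genes.

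In sorted goblet cells, few matrix protease genes were expressed. Between 22 and 25 members passed the filter in each of the 4 goblet cell tables. Per length the highest in the GWTM2 libraries were Mmp15 at 41.2 and 45.6 RPKM in the proximal colon, Adam9 at 39.1 and 33.8, and Adam10 at 29.9 and 26.4. Mmp2, so abundant in the stroma, had 29.2 and 39.9 normalized counts there. Fibroblast marker sums lay between 130 and 830 in all goblet cell libraries and those of 12 epithelial markers between 283812 and 642636.

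Timp3 was the single member called in goblet cells. It rose in the proximal colon from 44.6 and 30.2 in GWTM2 to 325 and 393 in GS4M2 (log2 fold change 3.25 ± 0.27, adjusted p = 0.0177), 1 of 23 members tested, where 0.325% of all genes were called. DESeq2 called 4 members (2.02% of all genes) and 4 passed the fold with an unadjusted p under 0.05 (4.28%). Without the first GS4M2 library its adjusted p was 0.0561. Of 23 members in the distal colon 0 were called by limma, 3 passed by unadjusted p (2.7% of all genes) and 3 by DESeq2 (1.11%). Distal Timp3 was at 21.1 and 26.04 in controls and 138 and 142 in knockouts (2.53 ± 0.30, adjusted p = 0.37). In GA3M2 it was at 71.5 and 83.9 against 47.5 and 31.95 in the proximal and at 47.96 and 176 against 20.2 and 25.1 in the distal colon, with adjusted p of 0.306 and 0.379. Each knockout library was above its controls in all 4 tables. The fibroblast marker sum of the proximal colon was 160 to 242 in GWTM2 and 225 to 244 in GS4M2, with 10 of its 12 genes without a row. Exons of Timp3 overlap those of Syn3 on the other strand.

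Timp2 had the opposite sign in GS4M2, at 739 and 1182 in controls and 325 and 366 in knockouts in the proximal colon (log2 fold change -1.44 ± 0.23, adjusted p = 0.0808) and at 110.4 and 352 in controls and 61.7 and 42.3 in knockouts in the distal colon (-1.93, adjusted p = 0.43). It was not called in either. Mmp15 was at 3654 and 3851 in controls and 2162 and 2671 in knockouts in distal GS4M2 and at 4032 and 4461 in controls and 2996 and 1682 in knockouts in proximal GA3M2, lower in each knockout library but not called. Adamtsl4 was at 109 and 97.2 in controls and 366 and 384 in knockouts in distal GA3M2 (1.85 ± 0.21, adjusted p = 0.187), and Adamts3, a procollagen N-proteinase, at 37.4 and 17.5 in controls and 109.6 and 118 in knockouts (2.11, adjusted p = 0.306). Both were without overlap between the groups. The neutrophil marker sum of distal GA3M2 was higher too, at 139 to 173 in controls and 1273 to 2082 in knockouts, with 8 of 12 genes without a row. Low T and NK cell sums were higher there, those of plasma and B cells, smooth muscle and goblet cells lower, and the others overlapped. Their part in these values was not tested.

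Mmp7, matrilysin, an epithelial enzyme that processes defensins in Paneth cells, varied more between control libraries than any comparison could resolve. The proximal GWTM2 libraries held 413 and 21.7 normalized counts and the GA3M2 libraries 1932 and 1356 (log2 fold change 4.06 ± 1.22, adjusted p = 0.249). Distal values were 433 and 4.37 in GWTM2 and 884 and 231 in GA3M2, and the groups overlapped. Mmp10 and Adamts6 had no read in the proximal GWTM2 libraries and stood at 39.3 and 4.61 and 9.06 and 35.97 in GA3M2, on average at least 7.11-fold and 7.30-fold higher. Both passed the filter through the knockout libraries. In GA3M2 0 of 25 members were called in the proximal colon by limma, beside 0.0899% of all genes, while 6 passed by unadjusted p with the fold (6.83% of all genes) and 2 by DESeq2 (2.88%). Of 22 members tested in the distal colon 0 were called by limma, 4 by unadjusted p (4.12%) and 2 by DESeq2 (1.75%). The proximal neutrophil marker sum was also higher, at 6.85 to 20.1 in the GWTM2 and 428 to 1658 in the GA3M2 libraries, with 8 of the 12 genes without a row. The fibroblast sum was 173 to 265 and 426 to 830 there, with 5 of 12 without a row. That of macrophage markers was 695 to 761 and 883 to 1289, with 3 of 12 without a row. Low T and NK cell and plasma and B cell sums were higher too. Smooth muscle and endothelial sums overlapped, and epithelial, goblet cell and enteric glia sums were lower without overlap. The median log2 fold change of the epithelial markers was nevertheless 0.25. The part of these cells was not tested. The effects of Smad4 loss and of Alk3 loss on goblet cells differed between segments for 0 of 21 members each by limma (0% of all genes), and for 2 and 1 by unadjusted p with the fold (2.26% and 0.905% of all genes).

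**Figure D4:**
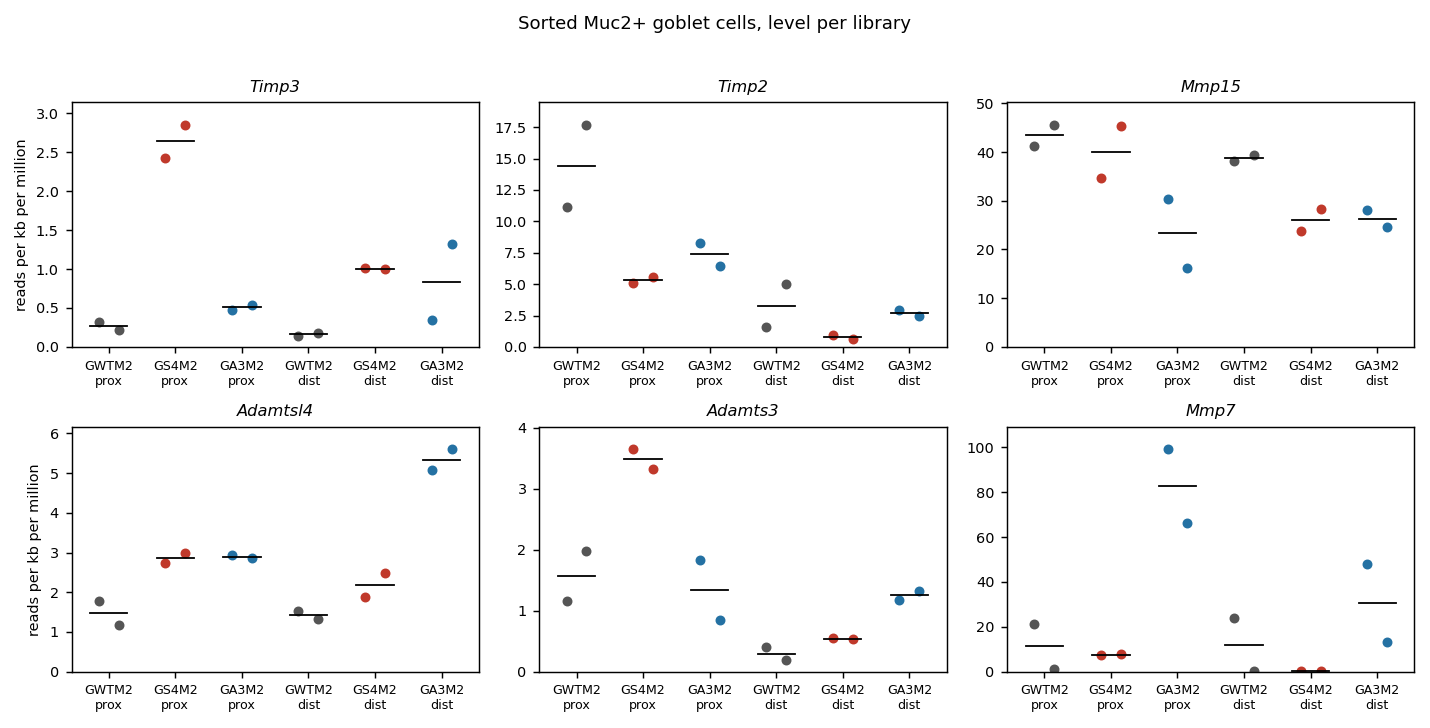
Level of 6 members in each sorted goblet cell library, in RPKM from 0, with scales that differ between panels. Points are libraries and lines are means of 2. Timp3 lies higher in both knockout groups than in GWTM2 of the same segment, and the 2 GWTM2 libraries of each segment differ widely for Mmp7.

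Organoids, which hold epithelium alone, were compared with and without cytokines. The leading members of untreated organoids did not differ beyond their spread, with Mmp15 at 38.1, 45.1 and 44.4 and Adam10 at 44.1, 40.01 and 43.1 RPKM at 72 h. At 12 h, 0 of 18 members were called with IL-1, none having an unadjusted p under 0.05, beside 0.0542% of all genes. With IL-17A at 12 h, 0 of 20 were called, beside 0.0385% of all genes. Adamts10 alone passed the fold with an unadjusted p under 0.05 (1.08% of all genes), at 35.4, 30.4 and 24.99 in untreated and 14.6, 19.8 and 7.75 in treated organoids (adjusted p = 0.926). DESeq2 and edgeR called 0 members in both 12 h comparisons.

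After 72 h of IL-1, 4 of 21 members rose, a share of 19.0% beside 23% of all genes called. With members below the filter included DESeq2 called 7 (21.9% of all genes). Adamtsl5 was at 214, 159 and 194 normalized counts in untreated and 1446, 704 and 955 in treated organoids (log2 fold change 2.39 ± 0.28, adjusted p = 0.00275, n = 3 libraries a group in limma). Mmp15 rose from 3107, 3665 and 3552 to 11164, 7359.9 and 7779 (1.33 ± 0.19, adjusted p = 0.0034). Adam15, a metalloproteinase of cell junctions, rose from 366, 500.2 and 507 to 1321, 994 and 1114 (1.32 ± 0.19, adjusted p = 0.00352). Adamts1 rose from 0.887, 9.53 and 9.33 to 27.7, 27.9 and 57.04 (2.62 ± 0.76, adjusted p = 0.0291) at a low level. All treated libraries were above all controls for the 4 genes, and 4 members were also called with the nearly identical untreated libraries averaged. Mmp14 was at 1467, 1815 and 1815 in untreated and 1360.4, 1257 and 1065 in treated organoids (-0.47, adjusted p = 0.0483), lower without overlap but short of the fold. The sum of 12 epithelial markers was 245012 to 304155 in untreated and 364658 to 444629 in treated organoids, with a median log2 fold change of 0.82. With IL-17A at 72 h it was 244521 to 303537 and 336949 to 453979, with a median of 0.63. The part of this shift in the values of the members was not tested.

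The 72 h and 12 h effects of IL-1 differed for Adamtsl5 by 2.71 ± 0.36 on the log2 scale (adjusted p = 0.00527), for Adam15 by 1.23 ± 0.30 (adjusted p = 0.0148) and for Mmp15 by 1.08 ± 0.26 (adjusted p = 0.015), where 17.4% of all genes differed. With each distinct control library entered once, 3 members differed as well. Of the untreated libraries labelled 72 h, replicates 1 and 4 held the same reads as 12 h ones, and replicate 2 was nearly identical to replicate 4. Neither the effect of a cytokine at 72 h nor its difference from 12 h can therefore be told apart from the time in culture. After 72 h of IL-17A, Adamtsl5 alone was called of 20 members, beside 7.94% of all genes, while edgeR called 2 members (7.28%), DESeq2 4 (16.7%) and unadjusted p with the fold 3 (20.6%). Adamtsl5 was at 1400.0, 461 and 1150.2 against 213, 158 and 194 (log2 fold change 2.27 ± 0.41, adjusted p = 0.0356). It was not called with the nearly identical untreated libraries averaged (2.22, adjusted p = 0.164), nor with sex as a block (2.08, adjusted p = 0.219) or the replicate number as a block (2.12, adjusted p = 0.198). Over all genes the number called fell from 1038 to 2, 5 and 4 in these 3 settings, so the loss was not particular to Adamtsl5. Mmp15 was at 9328, 4596 and 8989 (1.09, adjusted p = 0.0524) and Adam15 at 1281, 593 and 1271 (1.13, adjusted p = 0.0639). The second IL-17A library was the lowest of the 3 for each of these genes, and without it 4 members were called, while without any other single library 0 were called. IL-1 and IL-17A were compared with each other directly at both times and 0 members differed by limma or by unadjusted p with the fold. Of all genes 0% differed by limma at 12 h and 0.0154% at 72 h, and 0.27% and 0.269% by unadjusted p. The effect of IL-17A differed between the times for 0 members by limma and 2 by unadjusted p with the fold, beside 0.0393% and 15.6% of all genes.

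**Figure D5:**
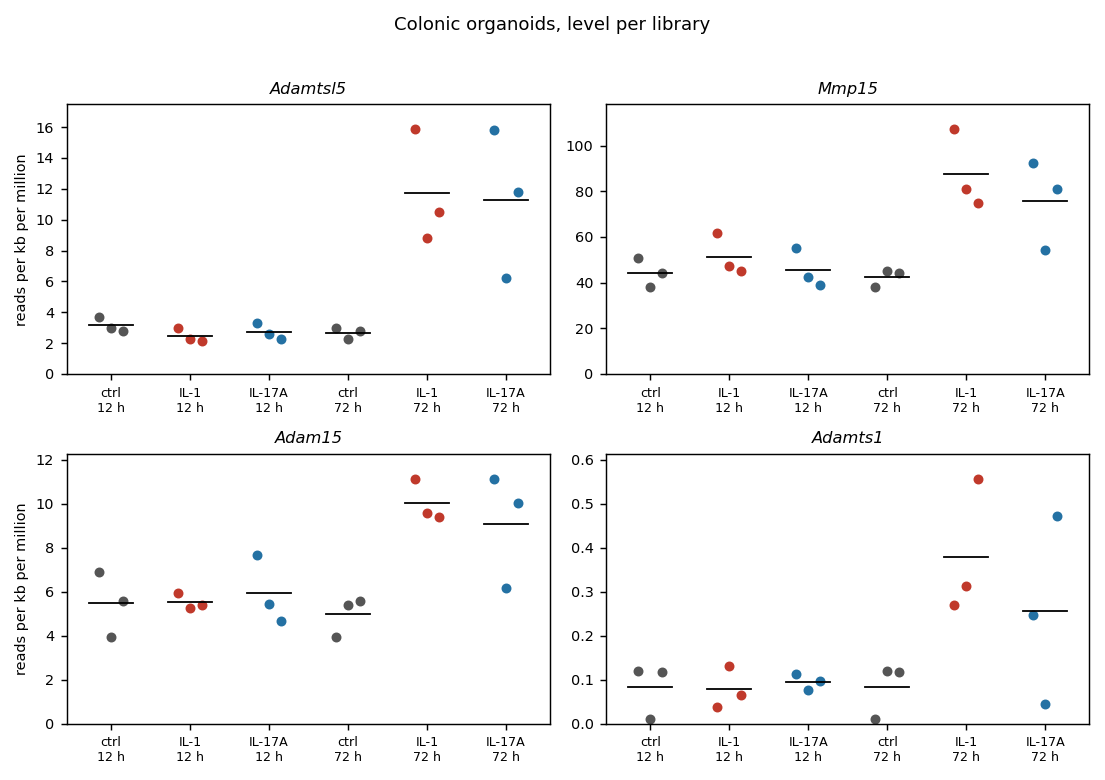
Level of 4 members in each organoid library, in RPKM from 0, with points for libraries and lines for means of 3. For Adamtsl5, Mmp15 and Adam15 the IL-1 libraries at 72 h lie above all untreated libraries, and the 12 h groups overlap with their controls. Of the untreated libraries, 2 appear under both times because they hold the same reads.

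Other genes of matrix proteolysis were followed from fixed lists. In GS4T, 3 of the 9 plasminogen activation genes tested rose in both segments, namely the activator Plau, its receptor Plaur and the inhibitor Serpine2, with Plau at 608 and 473 in controls and 3119.8 and 1428 in knockouts in the proximal and 1790.5 and 1785 in controls and 8022 and 3174 in knockouts in the distal colon. Of the astacin and tolloid list, Pcolce2, an enhancer of procollagen processing, fell from 6397 and 6584 to 493 and 767 (log2 fold change -3.40) and from 1088 and 1362 to 144 and 121 (-3.19), and Tll1 fell in the proximal colon, of 7 tested in each. Of 11 cathepsins and cystatins, Ctsc and Ctss rose in both segments and Ctsd in the distal colon. Reck, a membrane inhibitor of Mmp enzymes, fell from 2879 and 3701 to 1342 and 1322 in the proximal and from 2934 and 3239 to 1035 and 1172 in the distal colon. It was 1 of 4 genes of the list of other inhibitors and regulators that fell in the proximal colon, with Spock2, Pcsk5 and Pcsk6, and 1 of 3 in the distal colon, with Pcsk6 and Hpse, while Rhbdf2 rose in both. The lists held 12 and 13 tested genes. Over all these lists and the serine proteases that follow, 7 genes rose and 9 fell of 46 tested in the proximal colon (34.8%) and 8 rose and 6 fell of 47 in the distal colon (29.8%), beside 9.61% and 14% of all genes.

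Among 7 stromal serine proteases, Fap, fibroblast activation protein, fell from 3769.8 and 3803 to 536 and 799 in the proximal and from 752 and 791 to 400.4 and 365 in the distal colon. Prss23 fell in both and Dpp4 in the proximal colon. Prss35 rose from 4.14 and 4.10 to 124 and 313 (log2 fold change 5.27) and from 4.89 and 5.81 to 333 and 589 (6.13). No gene of these lists was called in either GA3T comparison, in goblet cells or in organoids at 12 h. After 72 h of IL-1, 7 of 33 were called, all higher (Mep1b, Pcolce, Ctsl, Ctsd, Bsg, Spock2 and Prss23), a share of 21.2% near the 23% of all genes. After 72 h of IL-17A 4 of 32 were called, all higher (Plaur, Ctsh, Bsg and Rhbdf1), 12.5% beside 7.94%.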

How the data were processed

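The deposited values are DESeq2-normalized gene counts (signal) that the authors made from reads mapped uniquely to mm10, with STAR 2.5.3 and DESeq2 1.28.1 named in the submitters' processing notes. Counting program and strand setting were not given in the sources used here. Each column was divided by the value of 1 read, and 100% of values then came out whole within 0.1. Both GS4M2 tables held 4 rows without a gene name, with 20.9 to 28.2% of the values, which were left out. The authors' fold changes and p-values in the same tables were not used.

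Genes with a mean of at least 10 were tested within each table by limma 3.58.1 with trend on log2(value + 1) in R 4.3.3, with Benjamini-Hochberg adjustment over all genes tested. Differences between segments or times were interaction terms, and knockouts or cytokines sharing controls were compared directly on recovered reads. Alternatives were pseudocounts of 0.1 and 10, no filter or one at 50, upper-quartile rescaling, edgeR 4.0.16 quasi-likelihood and DESeq2 1.42.0 on recovered reads, unadjusted p, a block for the replicate number, and each library left out. Sex of the library (read from its sex-linked genes) as a block, near-identical libraries averaged, distinct controls entered once, and single libraries left out of the stromal differences were added after seeing the data. The fits were tested on simulated data. Levels per length used GENCODE M21 exon lengths, and promoters came from RefSeq tables (GRCm38.p6).

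Genes were named if called, if among the 3 largest increases or decreases without overlap in a comparison, or if among 23 common members. The members and lists were chosen with earlier results of these data known.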

Additional observations from a re-analysis of the deposited data

Results flagged for a closer look

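The effect of Smad4 loss on Mmp3 in Gli1+ cells differed between segments by -3.51 on the log2 scale (proximal minus distal), with log2 fold changes of 1.02 and 4.53. The effect of IL-1 at 72 h exceeded that at 12 h by 2.71 for Adamtsl5, by 1.23 for Adam15 and by 1.08 for Mmp15. Each passed an interaction test at an adjusted p under 0.05. The segment difference of Mmp3 was also past the threshold with the replicate number as a block, and was not called with a pseudocount of 0.1 or in 7 of 8 fits that left out 1 library. In the IL-1 differences 2 pairs of control libraries were shared between the times, and 3 members differed with each distinct control entered once. With these controls the differences cannot be told apart from the time in culture.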

How the results depend on the processing

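The number of members called was within 1.5 times of that reported under every setting for GS4T distal (16 to 22 with 1 library left out), and no direction reversed in any setting. For GS4T proximal, leaving out 1 library gave 4 to 25. For GA3T proximal, 3 became 0 with a pseudocount of 0.1 and with edgeR, 5 with a pseudocount of 10, 12 with DESeq2, 19 by unadjusted p, 5 with sex as a block and 0 to 5 with 1 library left out. For GA3T distal, 0 became 11 with DESeq2, by unadjusted p and with sex as a block, and 0 to 14 with 1 library left out. For GS4M2 proximal, 1 became 4 with DESeq2, by unadjusted p and with sex as a block, and 0 to 4 with 1 library left out. For GS4M2 distal, 0 became 3 with DESeq2 and by unadjusted p, 2 with sex as a block and 0 to 4. For GA3M2 proximal, 0 became 2 with DESeq2, 6 by unadjusted p, 1 with sex as a block and 0 to 3, and for GA3M2 distal 2, 4, 5 and 0 to 5. IL-1 at 72 h gave 7 without a filter and with DESeq2, against 4. IL-17A at 72 h gave 2 with edgeR, 4 with DESeq2, 3 by unadjusted p, 0 with sex as a block, 0 with near-identical libraries averaged and 0 to 4 with 1 library left out, against 1, and at 12 h unadjusted p gave 1 against 0. By unadjusted p, the segment differences gave 9 for GS4T (0 with a pseudocount of 0.1), 5 for GA3T, 2 for GS4M2 and 1 for GA3M2, the IL-17A time difference 2, and GS4T against GA3T 5 proximal and 14 distal members. With 1 library left out, the GS4T segment difference gave 0 to 2 against 1, and GS4T against GA3T in the distal colon 0 to 6 against 6. Over all genes, sex as a block took the number called from 55 to 253 for GA3T proximal and from 0 to 600 for GA3T distal. It went from 43 to 137 for GS4M2 proximal, 0 to 225 for GS4M2 distal, 12 to 82 for GA3M2 proximal and 0 to 658 for GA3M2 distal. For IL-17A at 72 h it fell from 1038 to 5. The cause of these changes was not tested. The share of higher calls over all genes for IL-17A at 72 h was 63.2%, and 73.6% with edgeR.

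Replicate numbers were shared between groups, but the labels do not say that a number marks a shared animal, and only 2 numbers were shared in each comparison. Deviations of same-numbered libraries had correlations of 0.0965 to 0.191 in the stroma, -0.0573 to 0.302 in goblet cells, 0.619 to 0.637 in organoids at 12 h and -0.186 to 0.2 at 72 h. With the replicate number as a block, 22 members were called for GS4T proximal, 25 for GS4T distal, 5 for GA3T proximal, 3 for GA3T distal, 3 for GS4M2 proximal, 4 for GA3M2 proximal, 0 for GS4M2 and GA3M2 distal, 1 for each cytokine at 12 h, 3 for IL-1 and 0 for IL-17A at 72 h, 1 for the IL-17A time difference and 1 for GS4T against GA3T in the distal colon. The other differences between comparisons kept their counts with the block. Over all genes, the number called went from 1472 to 1618 for GS4T proximal and from 2130 to 2333 for GS4T distal. It went from 55 to 253 for GA3T proximal, 0 to 62 for GA3T distal, 43 to 260 for GS4M2 proximal and 12 to 699 for GA3M2 proximal. For GA3M2 distal it became 4 from 0, and GS4M2 distal stayed at 0. At 12 h, 7 became 100 with IL-1 and 5 became 120 with IL-17A, and at 72 h 2998 became 1513 and 1038 became 4.

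With 2 libraries a group, exact permutation cannot go below p = 0.33, so the tests rest on spread shared across genes. Members with counts near the filter, such as Adamts16, Adamts18 and Timp4, have wide errors at this depth.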
